A study of Mus musculus with 10 samples.

Results

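The kinases and adaptors that switch off G protein-coupled receptors were followed in mouse cardiomyocytes after myocardial infarction (MI), as the 5 genes of the GPCR kinases Grk2, Grk3, Grk4, Grk5 and Grk6 and the 2 genes of the beta-arrestins, Arrb1 and Arrb2. These 7 genes were found by gene symbol among the 51789 Ensembl identifiers of the count table, and all 7 passed the filter on low counts that left 15232 genes for testing. Cardiomyocytes were isolated on day 4 after surgical occlusion of the left coronary artery, and 1 RNA-Seq library was made per mouse. The NLC-MI group held 5 non-transgenic littermate controls and the TgGRK5-MI group held 5 mice with a GRK5 transgene specific to cardiomyocytes, so both groups carried an infarct and libraries of sham-operated mice were not analysed here. The promoter of the transgene, the species of its coding sequence and the strain are not given in the sources used here, and the study describes young adult mice of both sexes without the age or sex of single libraries. The comparison asks which of these genes differ in cardiomyocytes that make more GRK5.

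A GRK phosphorylates a receptor that has been activated by its ligand, and a beta-arrestin then binds the phosphorylated receptor, uncouples it from its G protein and links it to clathrin-coated pits. Grk2 and Grk3 form one branch of the kinase family and are brought to the membrane by free G protein beta-gamma subunits, whereas Grk4, Grk5 and Grk6 form another branch that sits at the membrane by lipid modification or lipid binding. Grk2 and Grk5 are the kinases studied most in the heart, where they act on beta-adrenergic and angiotensin receptors, and GRK5 can also enter the nucleus of the cardiomyocyte.

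Related genes can share reads, and the shared stretches were therefore read from the GENCODE M21 transcripts on GRCm38. The windows below are taken from the coding sequences, 60 bases each, with the longest run shared by both coding sequences in capitals. They are shown because reads can be shared between relatives where such runs are long, and so that the length of the runs of Grk5 can be seen. They cover the mouse transcripts alone. Sharing of the transgene's own sequence with the other genes was not examined, as its species is not given.
Grk2, chr19:4305937-4305996, reverse strand: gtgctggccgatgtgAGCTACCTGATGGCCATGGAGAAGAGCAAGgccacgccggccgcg
Grk3, chr5:113015402-113015461, reverse strand: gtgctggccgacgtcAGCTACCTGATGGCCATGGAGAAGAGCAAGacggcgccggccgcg
Grk5, chr19:61069378-61072474, forward strand, over 2 exons: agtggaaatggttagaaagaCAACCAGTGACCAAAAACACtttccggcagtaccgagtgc
Grk6, chr13:55451403-55451560, forward strand, over 2 exons: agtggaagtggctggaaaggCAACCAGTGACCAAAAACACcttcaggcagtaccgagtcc
Grk3, chr5:112953897-112955194, reverse strand, over 2 exons: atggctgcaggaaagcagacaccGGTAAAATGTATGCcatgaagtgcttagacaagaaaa
Grk5, chr19:61073393-61073452, forward strand: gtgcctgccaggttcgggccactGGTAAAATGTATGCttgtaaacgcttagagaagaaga
Arrb1, chr7:99598497-99598556, forward strand: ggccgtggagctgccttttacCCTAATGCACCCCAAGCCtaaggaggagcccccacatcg
Arrb2, chr11:70439668-70439727, forward strand: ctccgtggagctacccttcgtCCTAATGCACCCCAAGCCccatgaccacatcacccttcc
Grk2 and Grk3 shared a coding run of 30 bases, Grk5 and Grk6 one of 20 bases, Arrb1 and Arrb2 one of 18 bases, and Grk3 and Grk5 one of 14 bases. These pairs do not cover all the longest runs, as Grk4 and Grk6, not shown, shared a run of 23 bases that was coding in both.

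Over whole transcripts, with the UTRs, the longest run of Grk3 and Grk5 was 16 bases, and mouse Grk5 shared 0 words of 25 bases with each of the other 6 genes. Grk6 and Arrb1 shared 4 such words. Grk2 and Grk3 shared 8 such words, and their coding sequences were 75.3% identical over 2059 aligned bases. The identity was 74.1% for Arrb1 and Arrb2 and 71.3% for Grk5 and Grk6, while pairs of a GRK and a beta-arrestin, which are not homologous, lay between 63.4% and 69.4% in the same kind of alignment. Outside the family, Grk5 shared 185 words with the processed pseudogene Gm16284, all 185 in the coding sequence of Grk5. Gm16284 had 9 counts in NLC-MI replicate 3 and 0 counts in each of the other libraries, TgGRK5-MI included. Of the 25-base words of Grk4, 17.4% also lay in transcripts of other genes, so its counts are uncertain. The share was between 0.357% and 2.76% for the other members.

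The libraries held between 7968779 and 23381527 counts, and 3 of them, NLC-MI replicate 3 and TgGRK5-MI replicates 3 and 4, held fewer than 15000000. A count of 3, taken as the floor, equaled 0.121 to 0.393 CPM (counts scaled by library size and edgeR's TMM factors), below every value of the 7 genes. All 11 cardiomyocyte markers had counts in every library, and Myh6, the main myosin heavy chain of the adult mouse heart, averaged 29600 ± 13300 CPM in the NLC-MI libraries and 21200 ± 6790 CPM in the transgenic ones (SD, n = 5 each). Markers of fibroblasts, endothelial cells, leukocytes and mural cells were also present in each library, with the exception of the lymphocyte marker Cd3e, which was not in all. In such bulk RNA, fewer cells of a type and less RNA per cell cannot be told apart.

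Of the 7 genes, only Grk5 passed an adjusted p under 0.10 in edgeR's quasi-likelihood test, against 0.0788% of all genes tested. At an unadjusted p under 0.05, 2 of the 7 genes passed, Grk5 and Grk3, both higher in TgGRK5-MI, against 3.85% of all genes tested. The same 2 genes had groups that did not overlap, which held for 1.00% of all genes tested. The other 5 genes had estimates between -0.05 and 0.29 on the log2 scale, beside a median of 0.00127 over all genes tested. Grk5 is the gene of the transgene, so its place in these counts was set by the genotype. Without it, Grk3 alone passed the unadjusted threshold and had groups apart, and no member passed the adjusted one.

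**Figure D1:**
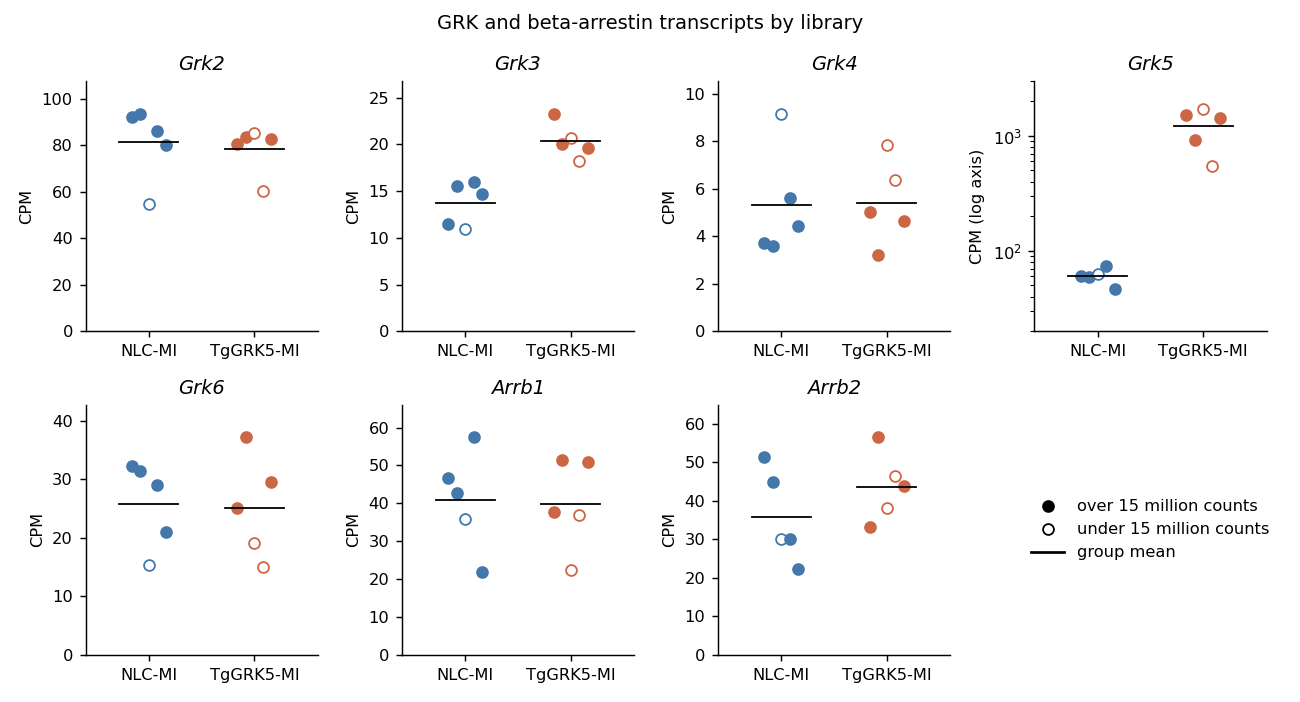
CPM of each GRK and beta-arrestin gene (vertical axes from 0, except Grk5 on a log axis) in the 5 NLC-MI and 5 TgGRK5-MI libraries, with a line at each group mean and open points for libraries under 15000000 counts. The groups lie apart for Grk5, from 46.5 to 73.1 against 552 to 1700 CPM, and for Grk3, from 10.9 to 16.0 against 18.2 to 23.3 CPM, and they overlap for the other 5 genes.

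Grk5 (ENSMUSG00000003228), on the forward strand of chromosome 19 from 60889749 to 61095968, encodes the kinase that the transgene supplies and so checks the labels. In the NLC-MI libraries 1 to 5 it was at 60.0, 59.3, 63.1, 73.1 and 46.5 CPM. In the TgGRK5-MI libraries 1 to 5 it was at 1510, 922, 1700, 552 and 1430 CPM. Every transgenic library was high, but they differed among themselves by 3.08-fold between replicates 4 and 3, against 1.57-fold between the highest and lowest control library. The fold change was 20.2 with a 95% confidence interval of 12.5 to 32.9 (log2 fold change 4.34 ± 0.32 SE, edgeR adjusted p = 0.000245). A two-sided exact permutation test returned p = 0.00794, the lowest value possible for groups of this size. Reads of the transgene and of the mouse's own Grk5 gene cannot be told apart in the table. As the species of the transgene's coding sequence is not given, reads of a sequence other than the mouse's could have been counted for Grk5 only in part, and its CPM, fold change and shares in TgGRK5-MI could then be too low.

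Grk5 took between 0.00405% and 0.00739% of all counts in NLC-MI and between 0.0563% and 0.152% in TgGRK5-MI. Ranked per kilobase of exon among 15204 genes, it stood between places 4048 and 5587 in the controls and between places 249 and 640 in the transgenic libraries. The rank in TgGRK5-MI assumes the length of the mouse gene, since the length of the transgene's transcript is not given. The opposite-strand gene Zfp950 lies within the span of Grk5 but shares 0 exon bases with it.

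Grk3 (ENSMUSG00000042249), on the reverse strand of chromosome 5 from 112910482 to 113015791, is the closest relative of Grk2 and is also recruited by beta-gamma subunits. It was at 11.5, 15.5, 10.9, 16.0 and 14.7 CPM in NLC-MI libraries 1 to 5. In TgGRK5-MI libraries 1 to 5 it was at 23.3, 20.1, 20.7, 18.2 and 19.6 CPM, from 169 to 521 counts. Each transgenic library thus lay above each control library, with means of 20.4 ± 1.88 and 13.7 ± 2.35 CPM (SD, n = 5 each). The fold change was 1.48 with a 95% confidence interval of 1.17 to 1.88 (log2 fold change 0.57, standard error 0.16).

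This difference in Grk3 had an unadjusted p of 0.00334 in edgeR's test over all genes, where 78 genes had a lower p, and did not pass after adjustment (edgeR adjusted p = 0.644). By exact permutation of the libraries p was 0.00794. DESeq2 gave an adjusted p of 0.150, the lowest of the 20 alternatives, and in each of the 20 the unadjusted p was under 0.05 and the log2 fold change between 0.49 and 0.63. Within the 7 libraries over 15000000 counts it was 0.53 (standard error 0.17, edgeR adjusted p = 0.997).

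**Figure D2:**
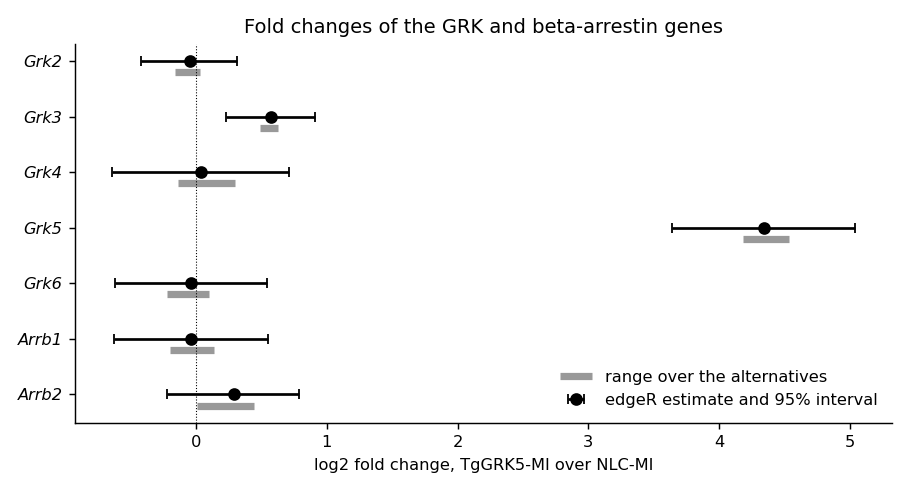
Log2 fold change of each gene, TgGRK5-MI over NLC-MI (horizontal axis), with points and bars for the edgeR estimate and its 95% confidence interval and grey bars for the range over 20 alternatives of processing. The intervals of Grk5, from 3.64 to 5.04, and of Grk3, from 0.23 to 0.91, lie above 0, and those of the other 5 genes include 0.

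Grk2 (ENSMUSG00000024858), on the reverse strand of chromosome 19 from 4286001 to 4306222, is the kinase that desensitizes beta-adrenergic receptors in the heart. It was at 92.2, 93.7, 54.6, 86.2 and 80.2 CPM in NLC-MI libraries 1 to 5 and at 80.8, 83.6, 85.4, 60.3 and 82.6 CPM in TgGRK5-MI libraries 1 to 5. One library in each group, NLC-MI replicate 3 and TgGRK5-MI replicate 4, was low, and the groups overlapped. The fold change was 0.965, with a 95% confidence interval of 0.749 to 1.24 (edgeR adjusted p = 1.0). A change of Grk2 above 1.24-fold or below 0.749-fold therefore lies outside the interval, whereas smaller changes could not be told from 0 with these libraries. The Grk3 to Grk2 ratio per kilobase, which does not depend on the scaling of a library, was between 0.0644 and 0.102 in NLC-MI and between 0.122 and 0.155 in TgGRK5-MI.

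Grk6 (ENSMUSG00000074886), on chromosome 13 from 55445072 to 55460927, is a relative of Grk5 that is known best from immune cells. It ranged from 15.4 to 32.3 CPM in NLC-MI and from 15.1 to 37.2 CPM in TgGRK5-MI, with means of 25.9 ± 7.29 and 25.2 ± 8.69 CPM (SD, n = 5 each). The fold change was 0.975, with a 95% confidence interval of 0.652 to 1.46 (edgeR adjusted p = 1.0). Grk4 (ENSMUSG00000052783), on chromosome 5 from 34660379 to 34755305, is a kinase found mainly in testis and kidney. It had from 59 to 120 counts per library and ranged from 3.60 to 9.16 CPM in NLC-MI and from 3.23 to 7.82 CPM in TgGRK5-MI. Its highest value in NLC-MI, 9.16 CPM, was that of the shallowest library, and the fold change of 1.03 had a 95% confidence interval of 0.643 to 1.64 (edgeR adjusted p = 1.0).

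The beta-arrestins are expressed in nearly all cells, and both carry receptors to clathrin and hold kinases of the MAP kinase cascade. Arrb1 (ENSMUSG00000018909), on chromosome 7 from 99535466 to 99606771, was at 46.8, 42.6, 35.9, 57.4 and 21.9 CPM in NLC-MI libraries 1 to 5. In TgGRK5-MI libraries 1 to 5 it was at 37.7, 51.4, 22.5, 36.9 and 50.8 CPM, within the range of the controls. The fold change was 0.975, with a 95% confidence interval of 0.648 to 1.47 (edgeR adjusted p = 1.0).

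Arrb2 (ENSMUSG00000060216), on chromosome 11 from 70432635 to 70440828, was at 51.4, 44.9, 30.0, 30.1 and 22.3 CPM in NLC-MI libraries 1 to 5. It was at 33.1, 56.5, 38.2, 46.5 and 43.8 CPM in TgGRK5-MI libraries 1 to 5. The groups overlapped, although 4 of the 5 transgenic libraries lay above the control mean of 35.7 CPM. The fold change of 1.22 had a 95% confidence interval of 0.860 to 1.73 (log2 fold change 0.29 ± 0.23 SE, edgeR adjusted p = 1.0). With sample quality weights in limma-voom, the log2 fold change of Arrb2 was 0.01.

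Levels of different genes were compared as CPM per kilobase of exon. In NLC-MI the order was Grk2 at 18.2 ± 3.56, Arrb2 at 12.6 ± 4.21, Grk5 at 8.56 ± 1.35, Grk6 at 6.15 ± 1.74, Arrb1 at 3.66 ± 1.18, Grk3 at 1.58 ± 0.270 and Grk4 at 1.10 ± 0.476 CPM per kilobase (SD, n = 5). Neighbors in this order overlapped between libraries, except Arrb1, from 1.96 to 5.13, and Grk3, from 1.25 to 1.84 CPM per kilobase. In TgGRK5-MI, Grk5 came first with 173 ± 66.9 CPM per kilobase, ahead of Grk2 at 17.5 ± 2.31 and Arrb2 at 15.3 ± 3.13 (SD, n = 5). The lowest Grk5 library, at 78.3, was above the highest Grk2 library, at 19.1 CPM per kilobase, and Grk2 and Arrb2 overlapped.

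The order in NLC-MI depended on the length used. Per kilobase of coding sequence, Grk2 stayed first at 39.4 ± 7.70, but Grk5 at 34.1 ± 5.37 and Arrb1 at 32.5 ± 10.5 came next, ahead of Arrb2 at 28.3 ± 9.48 CPM per kilobase (SD, n = 5). Arrb1 has 11175 exon bases but a coding sequence of 1257 bases, against 2845 and 1263 bases for Arrb2. Grk3 and Grk4 held the last places with each of the 3 lengths.

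Grk5 made up most of the GRK pool in the transgenic libraries. Of the summed CPM per kilobase of the 5 GRK genes, Grk5 took 20.5% to 32.0% in NLC-MI and 79.3% to 89.7% in TgGRK5-MI. The TgGRK5-MI shares take the 7055 exon bases of the mouse gene as the length of the transgene and count only reads assigned to mouse Grk5, and with coding length Grk5 took 30.3% to 43.8% in NLC-MI and 86.1% to 93.5% in TgGRK5-MI. Grk2 took 43.6% to 55.7% in NLC-MI and 7.10% to 13.6% in TgGRK5-MI. The summed level of the other 4 kinases was 27.0 ± 4.94 CPM per kilobase in NLC-MI and 27.0 ± 3.82 in TgGRK5-MI (SD, n = 5 each). The share of Arrb1 in the summed beta-arrestin level was 18.8% to 32.7% in NLC-MI and 13.1% to 22.8% in TgGRK5-MI, and 53.3 ± 7.40% and 47.3 ± 6.89% per kilobase of coding sequence (SD, n = 5 each).

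**Figure D3:**
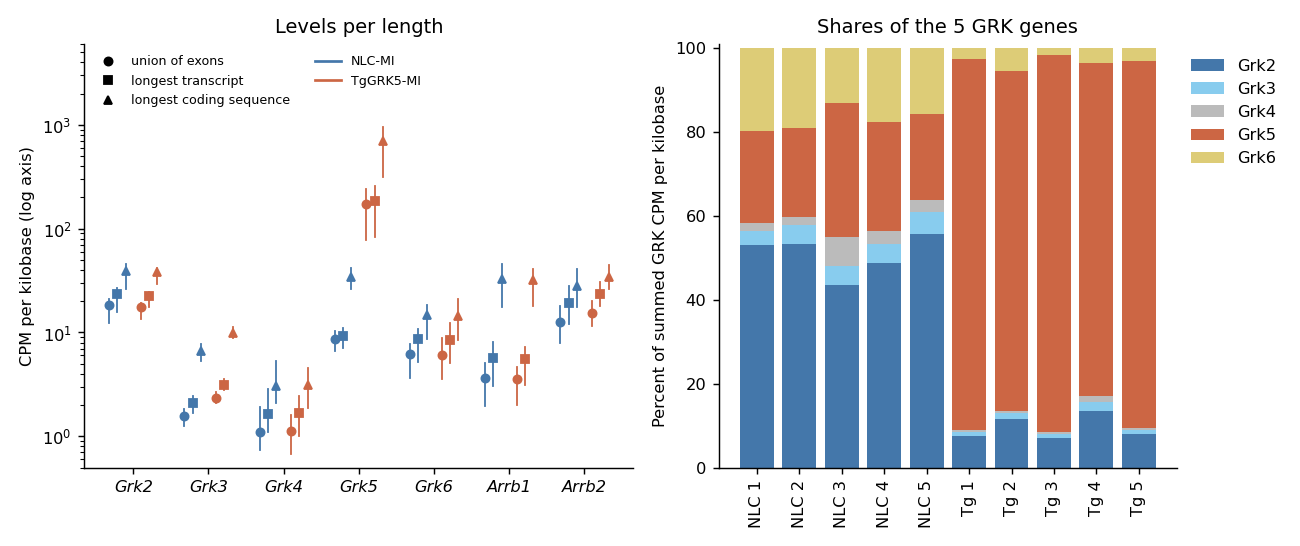
Left, mean CPM per kilobase of each gene (log axis) by group with 3 lengths, with bars from the lowest to the highest library. Right, share of each kinase in the summed CPM per kilobase of exon of the 5 GRK genes in each library (NLC, NLC-MI; Tg, TgGRK5-MI), where Grk5 takes at most 32.0% in NLC-MI and at least 79.3% in TgGRK5-MI.

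Several members varied with the depth of the library within the groups. After subtraction of the group means, log2 CPM of Grk6 correlated with log2 total counts with a Pearson r of 0.91 (exact permutation p = 0.00153, adjusted over 7 genes 0.0107) and a Spearman rho of 0.73 (exact permutation p = 0.0294, adjusted 0.112) over 10 libraries. Grk4 went the other way, with r = -0.82 (exact permutation p = 0.0127, adjusted 0.0319) and rho = -0.68 (exact permutation p = 0.0480, adjusted 0.112). Without the 2 libraries farthest from the median depth, NLC-MI replicate 3 and TgGRK5-MI replicate 4, r was 0.77 for Grk6 and -0.72 for Grk4.

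For Grk2 r was 0.89 (exact permutation p = 0.0137, adjusted 0.0319; rho = 0.54, p = 0.117, adjusted 0.163) and for Grk3 it was 0.68 (exact permutation p = 0.0211, adjusted 0.0369; rho = 0.66, p = 0.0465, adjusted 0.112). Both rested on the same pair of libraries, without which r was 0.17 for Grk2 and 0.21 for Grk3. Grk5, Arrb1 and Arrb2 had r of 0.33, 0.39 and 0.22 (exact permutation, adjusted p = 0.458, 0.392 and 0.615). With depth as a covariate, edgeR's log2 fold change was 0.60 for Grk3 (standard error 0.13, adjusted p = 0.253) and 4.34 for Grk5 (adjusted p = 0.000496). The part of depth in these levels was not tested further.

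**Figure D4:**
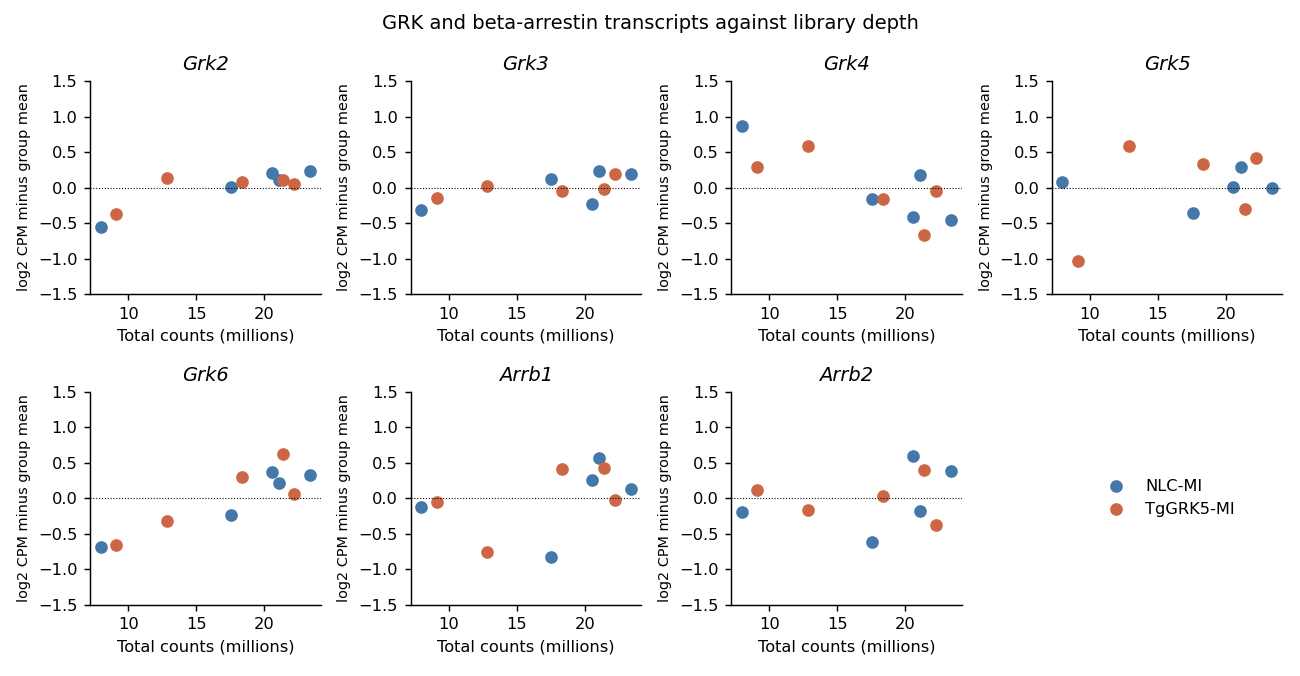
Log2 CPM minus the group mean (vertical axis) against total counts (horizontal axis) for each gene, 1 point per library. Grk6 and Grk2 are lowest and Grk4 is highest in NLC-MI replicate 3, the library with the fewest counts, 7968779.

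Among the members themselves, 0 of 21 pairs had a correlation with an adjusted p under 0.05 by Pearson's r after subtraction of the group means. The highest in size were Grk4 with Grk6 (r = -0.85, exact permutation p = 0.00417, adjusted 0.0583; rho = -0.93, p = 0.00118, adjusted 0.0248) and Grk2 with Grk6 (r = 0.81, exact permutation p = 0.00556, adjusted 0.0583; rho = 0.68, p = 0.0446, adjusted 0.312). Without the 2 libraries farthest from the median of the first gene, r was -0.77 for Grk4 with Grk6 and 0.41 for Grk2 with Grk6. Grk2, Grk4 and Grk6 also varied with depth. For the spread of Grk5 among libraries, its r with the other 6 genes lay between -0.21 and 0.43.

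The genes whose levels followed Grk5 most closely, by Pearson's r over the 10 libraries after subtraction of the group means, were Slc12a5, Tmem267 and Mettl7a3. Slc12a5, a potassium chloride cotransporter, had r = 0.899 at 1.78 ± 0.480 CPM in the NLC-MI libraries and 2.55 ± 1.16 CPM in the transgenic ones (SD, n = 5 each). Tmem267, a transmembrane protein gene, had r = 0.899, and Mettl7a3, of the methyltransferase-like genes, had r = 0.894. The mean of each was below 3 CPM in both groups. Without the 2 libraries farthest from the median, r fell to values between 0.64 and 0.79, and no p is given as the 3 were picked from all genes tested.

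The content of other cells varied as well. Summed over the 11 leukocyte markers, the level was 589 to 1830 CPM in NLC-MI and 990 to 2040 CPM in TgGRK5-MI, and the lymphocyte marker Cd3e did not pass the filter. Lyz2, the lysozyme of macrophages and neutrophils and the highest of them, was at 594 ± 338 and 790 ± 291 CPM (SD, n = 5 each). By edgeR 0 of the 10 leukocyte markers tested had an unadjusted p under 0.05. An estimate above 0 was found for 9 of the 10 (median log2 fold change 0.20), against 7646 of all 15232 genes tested. In the other lists it was found for 4 of 11 cardiomyocyte, 4 of 8 fibroblast, 2 of 7 endothelial and 2 of 6 mural cell markers. These signs were not tested. The 11 cardiomyocyte markers summed to 57700 to 150000 CPM in NLC-MI and 62200 to 124000 CPM in TgGRK5-MI, and the ranges of the groups overlapped for the other lists too. Of the markers, 2 had an unadjusted p under 0.05, 1 of 11 cardiomyocyte and 1 of 6 mural cell markers, against 3.85% of all genes tested. Among the 8 fibroblast and 7 endothelial markers 0 did. The 2 genes were lower in TgGRK5-MI and were named after their values were seen. They were the calcium release channel gene Ryr2 (log2 fold change -0.93, edgeR adjusted p = 0.968) and the pericyte gene Cspg4 (-0.62, edgeR adjusted p = 1.0). Col3a1 led the 8 fibroblast markers, which summed to 4030 to 24100 and 4200 to 24800 CPM. Cdh5 led the 7 endothelial markers, with 849 to 1450 and 757 to 1500 CPM, and Acta2 led the 6 mural cell markers, with 765 to 1450 and 1070 to 1620 CPM.

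Arrb2, Grk6 and, in the opposite direction, Grk4 varied with these sums. Each sum adds CPM, so its most abundant markers, such as Lyz2 for leukocytes and Acta2 for mural cells, weigh most. After subtraction of the group means, log2 CPM of Arrb2 had an r of -0.87 with the cardiomyocyte sum (exact permutation p = 0.00229, adjusted over 35 relations 0.0642; rho = -0.89, p = 0.000694, adjusted 0.0122), and -0.92 without the 2 libraries farthest from the median. With the leukocyte sum its r was 0.89 (exact permutation p = 0.00500, adjusted 0.0642; rho = 0.78, p = 0.0275, adjusted 0.162). The relation was not particular to leukocytes, as r of Arrb2 was 0.83 with the mural cell sum and 0.81 with the fibroblast sum (exact permutation p = 0.0142 and 0.0156, adjusted 0.0717 for each). Grk6 had an r of 0.81 with the leukocyte sum (exact permutation p = 0.00701, adjusted 0.0642; rho = 0.93, p = 0.000278, adjusted 0.00972), and Arrb1 an r of -0.85 with the cardiomyocyte sum (exact permutation p = 0.00833, adjusted 0.0642; rho = -0.66, p = 0.0562, adjusted 0.179). Without the 2 libraries farthest from the median of the sum, r was 0.78 for Arrb2 and 0.75 for Grk6 with the leukocyte sum, and -0.42 for Arrb1 with the cardiomyocyte sum, which thus rested on those libraries. Grk4 had an r of -0.80 with the leukocyte sum (exact permutation p = 0.00917, adjusted 0.0642; rho = -0.84, p = 0.00444, adjusted 0.0519), and -0.71 without that pair. With the fibroblast sum r was 0.68 for Grk6 and -0.73 for Grk4 (exact permutation p = 0.0428 and 0.0258, adjusted 0.15 and 0.1). By Pearson's r, 0 of the 35 relations passed an adjusted p under 0.05. Grk5 had r between -0.45 and 0.20 with the 5 sums, and between -0.66 and 0.33 without the farthest pair of libraries for each sum. Grk3 had an r of -0.04 with the leukocyte sum and -0.68 with the endothelial sum (exact permutation p = 0.0164, adjusted 0.0717; rho = -0.62, p = 0.0525, adjusted 0.179), or 0.39 and -0.59 without the farthest pair of libraries. Grk6 and Grk4 also varied with depth, with r of 0.91 and -0.82 with log2 total counts. The parts of other cells and of depth in the levels of Arrb2, Grk6 and Grk4 were not tested and were not separated.

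**Figure D5:**
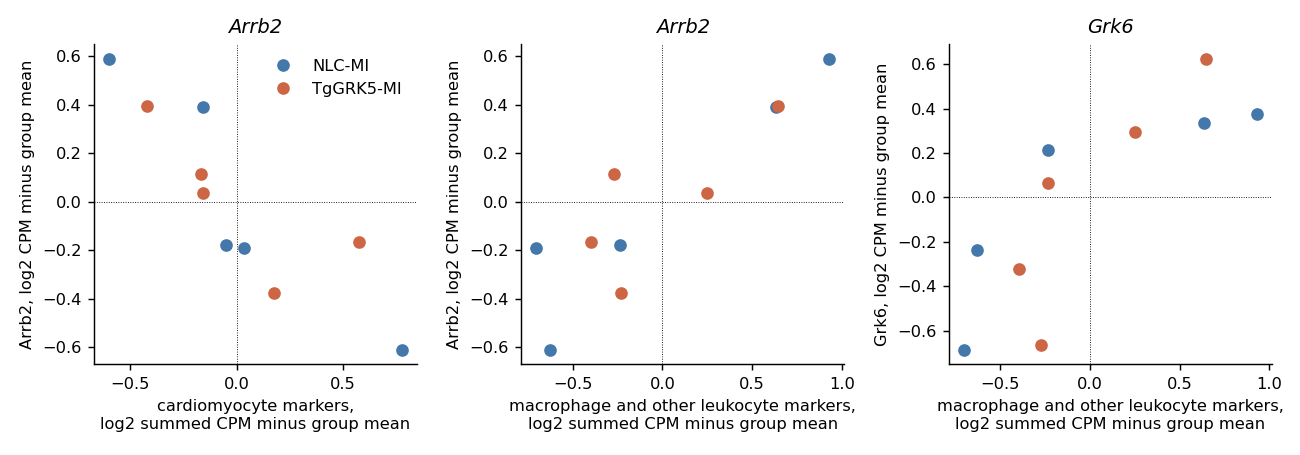
Log2 CPM of Arrb2 and Grk6 minus the group mean (vertical axes) against the log2 summed CPM of a marker list minus the group mean (horizontal axes), 1 point per library, for 3 of the 35 relations, chosen after their values were seen. Libraries with a higher cardiomyocyte sum have lower Arrb2 (r = -0.87), and those with a higher leukocyte sum have higher Arrb2 and Grk6 (r = 0.89 and 0.81). Grk6 also varied with library depth (r = 0.91), which was not separated from the sum.

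The partners of the GRKs and beta-arrestins were read as 7 lists written by hand, with 99 list entries tested. By edgeR 0 had an adjusted p under 0.10, against 2 by DESeq2 and 1 by limma-voom, where the shares over all genes tested were 0.0788%, 0.243% and 0.328%. The DESeq2 share is over 28443 genes, a wider set than the 15232 that passed the filter and held the list entries, so it is not a like background. At the looser threshold 5 of the 99, or 5.05%, had an unadjusted p under 0.05, against 3.85% of all genes tested. The medians of the lists lay between -0.12 and 0.08 on the log2 scale. Of 13 beta and gamma subunits tested, which carry Grk2 and Grk3 to the membrane, 1 was higher and 0 were lower at an unadjusted p under 0.05, and Gnb1 was the most abundant at 215 ± 37.2 CPM in the NLC-MI libraries and 230 ± 31.6 CPM in the transgenic ones (SD, n = 5 each). The one was Gnb3, a beta subunit, at 4.64 ± 2.52 CPM in the NLC-MI libraries and 13.9 ± 8.41 CPM in the transgenic ones (SD, n = 5 each; log2 fold change 1.58 ± 0.41 SE, exact permutation p = 0.0238, edgeR adjusted p = 0.594). Its groups overlapped, from 2.88 to 9.10 against 7.43 to 28.2 CPM. DESeq2 gave Gnb3 an adjusted p of 0.0655 and limma-voom one of 0.0298, while over all 20 alternatives it ran from 0.0298 to 1.0.

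Of 16 receptors tested, 1 was lower and 0 were higher at an unadjusted p under 0.05. This was Adra1b, the alpha-1B adrenergic receptor, from 16.4 to 38.5 CPM in NLC-MI, with every TgGRK5-MI library below that range (log2 fold change -1.10, edgeR adjusted p = 0.510, and DESeq2 adjusted p = 0.0593). Groups that did not overlap were found for 1.00% of all genes tested. Over the 20 alternatives the adjusted p of Adra1b ran from 0.0593 to 0.999 and was under 0.10 in 1. Its log2 fold change ran from -1.25 to -0.76. The muscarinic receptor Chrm2 was the most abundant receptor of the list at 111 ± 41.9 and 89.5 ± 27.5 CPM (SD, n = 5 each). Of 15 genes whose proteins bind or regulate GRKs, such as calmodulin and caveolin, 0 passed either threshold in edgeR, and the estimates ran from -0.24 to 0.30, the latter for the calmodulin gene Calm2. The chaperone Hsp90ab1 was the most abundant of them at 1750 ± 270 and 1830 ± 503 CPM (SD, n = 5 each).

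Of 21 genes of receptor endocytosis and recycling, Usp20, which removes ubiquitin from beta-adrenergic receptors, was lower at an unadjusted p under 0.05, from 44.1 to 114 CPM in NLC-MI and from 29.9 to 50.6 CPM in TgGRK5-MI (log2 fold change -0.68, exact permutation p = 0.0317, edgeR adjusted p = 1.0). It passed that threshold in 18 of the 20 alternatives, and without NLC-MI replicate 4 its log2 fold change was -0.41. The ubiquitin ligase Nedd4 led this list with 661 ± 48.4 and 661 ± 108 CPM (SD, n = 5 each). Of 15 signaling partners of beta-arrestins, Mapk3, the kinase ERK1, was higher at that threshold, from 61.0 to 82.5 CPM against 70.2 to 99.7 CPM (log2 fold change 0.35, exact permutation p = 0.0317, edgeR adjusted p = 1.0), and it passed that threshold in 10 of the 20 alternatives. The phosphatase subunit Ppp2ca led the list with 239 ± 39.8 and 283 ± 52.0 CPM (SD, n = 5 each). Of 13 nuclear partners and targets of GRK5, Hdac5, the histone deacetylase that GRK5 phosphorylates, was lower at an unadjusted p under 0.05 (log2 fold change -0.45, exact permutation p = 0.0238, edgeR adjusted p = 1.0). Its groups overlapped, from 66.5 to 105 CPM in NLC-MI against 50.9 to 69.7 CPM in TgGRK5-MI. Hdac5 passed the unadjusted threshold in 20 of the 20 alternatives and an adjusted p under 0.10 in 0. Rcan1, a target gene of NFAT, was the most abundant of the list at 335 ± 131 and 351 ± 76.9 CPM (SD, n = 5 each). Of 6 alpha-arrestins and relatives tested, 0 passed either threshold in edgeR, Txnip was the most abundant at 487 ± 227 and 466 ± 107 CPM (SD, n = 5 each), and Arrdc2 had the estimate farthest from 0 (log2 fold change -0.51, edgeR adjusted p = 1.0).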

How the data were processed

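The deposited table holds counts as whole numbers, 1 value per Ensembl gene and library for 10 libraries, without normalization by the authors. The submitters' processing notes name mm10, Bowtie2, RSEM 1.2.31 and DESeq2 without saying which step each served. Counts made with RSEM would be rounded estimates that divide ambiguous reads among related genes. The strand setting is not given in the sources used here, and replicates are separate mice.

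Genes were named and measured in length with GENCODE M21 on GRCm38. In edgeR 4.0.16 under R 4.3.3, counts were scaled by TMM, filtered by filterByExpr (15232 of 28506 genes with counts) and compared by the quasi-likelihood F test with Benjamini-Hochberg adjustment over all genes tested. Thresholds were an adjusted p under 0.10 and an unadjusted p under 0.05. Log2 CPM used a prior count of 2. Single values were tested by two-sided exact permutation over 252 placements of the libraries, and correlations by 14400 exact permutations within the groups. Alternatives included DESeq2 1.42.0 and limma 3.58.1, and checks of depth and markers were chosen after seeing the data. The members and gene lists were chosen with earlier results of these data known. Named genes were all members and, per list, the most abundant, the most changed and those with an unadjusted p under 0.05, and the 3 genes closest to Grk5. A floor of 3 counts and the intervals cover counting or library spread only.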

Additional observations from a re-analysis of the deposited data

Results flagged for a closer look

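One value stood apart from its group. Among the 14 sets of 5 libraries examined, 7 genes in each of the groups, Grk2 in TgGRK5-MI replicate 4 was at 60.3 CPM, while the other TgGRK5-MI libraries lay between 80.8 and 85.4 CPM. The gap to the nearest library was 0.814 of the whole range of the group. About 1 in 20 such sets is expected to stand out by chance. This library held 9114469 counts, and it was also the lowest of its group for Grk5, at 552 CPM, for Grk3, at 18.2 CPM, and for Grk6, at 15.1 CPM. Without it, the log2 fold change of Grk2 was 0.03 in place of -0.05.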

How the results depend on the processing

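The number of members with an adjusted p under 0.10 was 1, and with an unadjusted p under 0.05 it was 2, in each of 20 alternatives. Both numbers include Grk5, the gene of the transgene. The log2 fold change of Grk5 lay between 4.18 and 4.53 and that of Grk3 between 0.49 and 0.63. Estimates close to 0 changed sign in 21 of 140 combinations of gene and alternative. With each library left out in turn they ran from -0.16 to 0.03 for Grk2, from -0.14 to 0.30 for Grk4, from -0.22 to 0.10 for Grk6 and from -0.20 to 0.12 for Arrb1. With depth as a covariate they were 0.0062 for Grk2, -0.00055 for Grk4 and 0.03 for Grk6. In the 7 libraries over 15000000 counts they were -0.03 for Grk4, 0.10 for Grk6 and 0.14 for Arrb1. The cause was not tested. By Pearson's r, the number of pairs of members with an adjusted p under 0.05 was 0 with a prior count of 0.5 and with RLE size factors. By Spearman's rho, Grk4 with Grk6 passed in the main setting (exact permutation, adjusted p = 0.0248).

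Across all genes, 12 had an adjusted p under 0.10 in edgeR, against 69 with DESeq2 (28443 genes tested), 50 with limma-voom, 8 with the replicate block and from 3 to 10 without 1 library. Same-numbered libraries had correlations of 0.0717, 0.662, 0.381, -0.341 and 0.0848, with a mean of 0.172 against -0.0274 for libraries of different number. So few values cannot settle whether the numbers pair the mice, and the groups were compared as unpaired. A replicate block in edgeR gave a log2 fold change of 4.26 for Grk5 (edgeR adjusted p = 0.00698) and of 0.58 for Grk3 (edgeR adjusted p = 1.0) and changed no call of a member. The lowest counts among the members were those of Grk4, with 59 to 120 per library.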
